A study of Rattus norvegicus with 13 samples.

Results

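Facial skin-derived precursors (SKPs) were compared with mesenchymal stromal cells (MSCs), both grown from adult Sprague Dawley rats and passaged 2 times. SKPs are dermal precursor cells grown in culture from skin, and MSCs are stromal cells that served as another adult mesenchymal population. The comparison took the 3 arrays titled facial SKPs and the 4 arrays titled MSCs, which are 7 of the 13 Affymetrix Rat Gene 1.0 ST arrays of the series. The other 6 arrays held SKPs of dorsal and of ventral trunk skin (3 each), of the same strain and passage, and served to find what facial SKPs showed against MSCs that trunk SKPs did not. Each array was 1 isolate, and the design text calls the SKP isolates independent. No treatment or transgene is named for any group. The sources used here give neither the tissue from which the MSCs came nor the culture media, nor the sex and exact age of the animals. Signals are log2 values of 14506 genes, so a difference of 1 is a 2-fold change. Signals of different genes come from different probes, so levels were compared between groups and not between genes.

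Most dermis of the face descends from cranial neural crest, whereas dermis of the back comes from somites and that of the belly from lateral plate mesoderm. Cranial neural crest of the front of the head forms without Hox genes, the homeobox factors that record position along the trunk, and other homeobox families such as Alx, Msx and Lhx take part in patterning the face. Cultured fibroblasts of adult skin are known to keep part of such a positional record. The series concerns SKPs that arise from skin of different developmental origins. Facial SKPs were set against MSCs and against trunk SKPs to find the genes in which they stood apart.

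The labels were set against markers of both cell types. Sox2, a stem cell transcription factor, had log2 signals of 7.5, 6.63 and 6.2 on the 3 facial arrays and 5.7, 5.19, 4.98 and 5.21 on the 4 MSC arrays. These did not overlap, and Sox2 rose (1.51, SE 0.31, adjusted p = 0.00521). The mesenchymal factor Twist1 (1.7, SE 0.37, adjusted p = 0.00694) and Crabp1, which binds retinoic acid (5.01, SE 0.85, adjusted p = 0.00166), rose too. The neurotrophin receptor Ngfr passed (0.88, SE 0.27, adjusted p = 0.038), a call lost without facial array 1 (0.125) or 2 (0.149), dorsal array 2 (0.0509), ventral array 1 (0.0548) or MSC array 1 (0.0663), 2 (0.0933) or 4 (0.0761), with 0.00726 to 0.193 over its alternatives. Nestin (Nes, -0.76), Snai2 (-0.83), versican (Vcan, 0.31) and fibronectin (Fn1, 0.00) did not pass. Of the surface proteins that define MSCs, Thy1 (11.74 to 12.4), Cd44 (9.06 to 9.7), endoglin (Eng, 8.94 to 9.89) and the integrin subunit Itgb1 (12.41 to 13.15) were far above background on all 4 MSC arrays. Nt5e lay at 5.87 to 8.33 there, and Vcam1 was below background on MSC arrays 3 and 4. The markers that MSCs should lack were low, with Ptprc at 3.37 to 4.09, Cd34 at 3.5 to 4.58 and Itgam at 2.84 to 3.5. A gene counted as below background in a group where its mean lay under that group's 25th percentile, a limit of 3.84 in facial and dorsal SKPs, 3.79 in ventral SKPs and 3.83 in MSCs. Where 1 of the groups compared was below background, the difference is given as measured and its size is not resolved, which holds against MSCs for Dio2, Serpina3n, Mmp10, Hapln1, Cd36, Fabp4, Ccl6, Ccl3, Usp18 (low in MSCs) and Dlx5 (low in SKPs) among the genes named.

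Markers of macrophages and other leukocytes were high in the facial cultures and unequal between the 3 facial isolates. The mean of 29 measured markers was 7.61, 6.26 and 9.77 on facial arrays 1, 2 and 3 and 4.31 to 4.79 on the MSC arrays. It was 5.21 to 5.48 on ventral arrays and 7.02, 5.06 and 4.28 on dorsal arrays, so dorsal array 1 lay among the facial arrays. Of the 29, 24 were called higher in facial SKPs than in MSCs at an adjusted p under 0.05, where 9.47% of all genes were called higher. Without facial array 3 these were 16, and without both facial array 3 and dorsal array 1 they were 24. The latter fit was added after the data were seen. The median difference of the 29 was 3.28, against -0.03 over all genes. In dorsal SKPs against the same MSCs, where 8.77% of all genes were higher, 0 of the 29 passed limma's test (3 at an unadjusted p under 0.05). In ventral SKPs, where 13% of all genes were higher, 3 of the 29 passed. Facial SKPs minus the mean of both trunk groups passed for 4 of the 29 (1.28% of all genes were higher and 1.42% lower in that contrast), and for none of those 4 (Mrc1, Cybb, Itgam, Fcgr1a) without facial array 1 or without facial array 3 (adjusted p from 0.0853 to 0.119 and from 0.102 to 0.19, and from 0.00109 to 0.745 over all alternatives of the 4). Ptprc, the pan-leukocyte phosphatase, had a facial mean of 7.79 ± 2.12 and an MSC mean of 3.64 ± 0.35, and the macrophage marker Cd68 had 9.97, 9.2 and 11.69 on the facial arrays. Lysozyme 2 (Lyz2) had 11.16, 9.31 and 12.59 and differed from MSCs by 6.51 (SE 1.27, adjusted p = 0.00405). All 29 markers lay above background in facial SKPs and 22 did in MSCs. Facial array 3 was highest and array 2 lowest in 28 of the 29 (96.6%), an order that 14.9% of all genes had. Cells of another type and a change within the SKPs cannot be told apart in bulk RNA, and neither can fewer cells of a type and less RNA per cell.

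Against MSCs, facial SKPs had 1373 genes called higher and 1389 called lower, together 19% of 14506 genes, with limma's moderated test and Benjamini-Hochberg adjustment over all genes. Without facial array 3 the lower genes were 891. At 2-fold or more, 772 of the called genes were higher and 565 lower. The same MSC arrays gave 16.5% of genes called in dorsal SKPs (8.77% higher, 7.76% lower) and 24.4% in ventral SKPs (13% higher, 11.4% lower). These comparisons thus share their controls. The median SD over genes was 0.15 in facial, 0.20 in dorsal and 0.12 in ventral SKPs and 0.19 in MSCs. Direct comparison of facial with dorsal SKPs called 1.25% of genes (0.793% higher in facial), with ventral SKPs 6.6%, and with the mean of both trunk groups 2.7%. A gene was taken to stand apart in facial SKPs where facial differed the same way from MSCs, from dorsal and from ventral SKPs, each at an adjusted p under 0.05. This held for 48 genes that were higher (0.331% of those tested) and 22 that were lower (0.152%). Of the 48, 47 had all 3 facial arrays above all 10 others, and 237 genes (1.63%) had such an order in all. The mean of the 48 was 7.08, 7.32 and 7.18 on the facial arrays and 4.75 to 5.26 on the 10 others. This order and these means follow in large part from the rule, which chose the 48 on the same arrays.

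**Figure D1:**
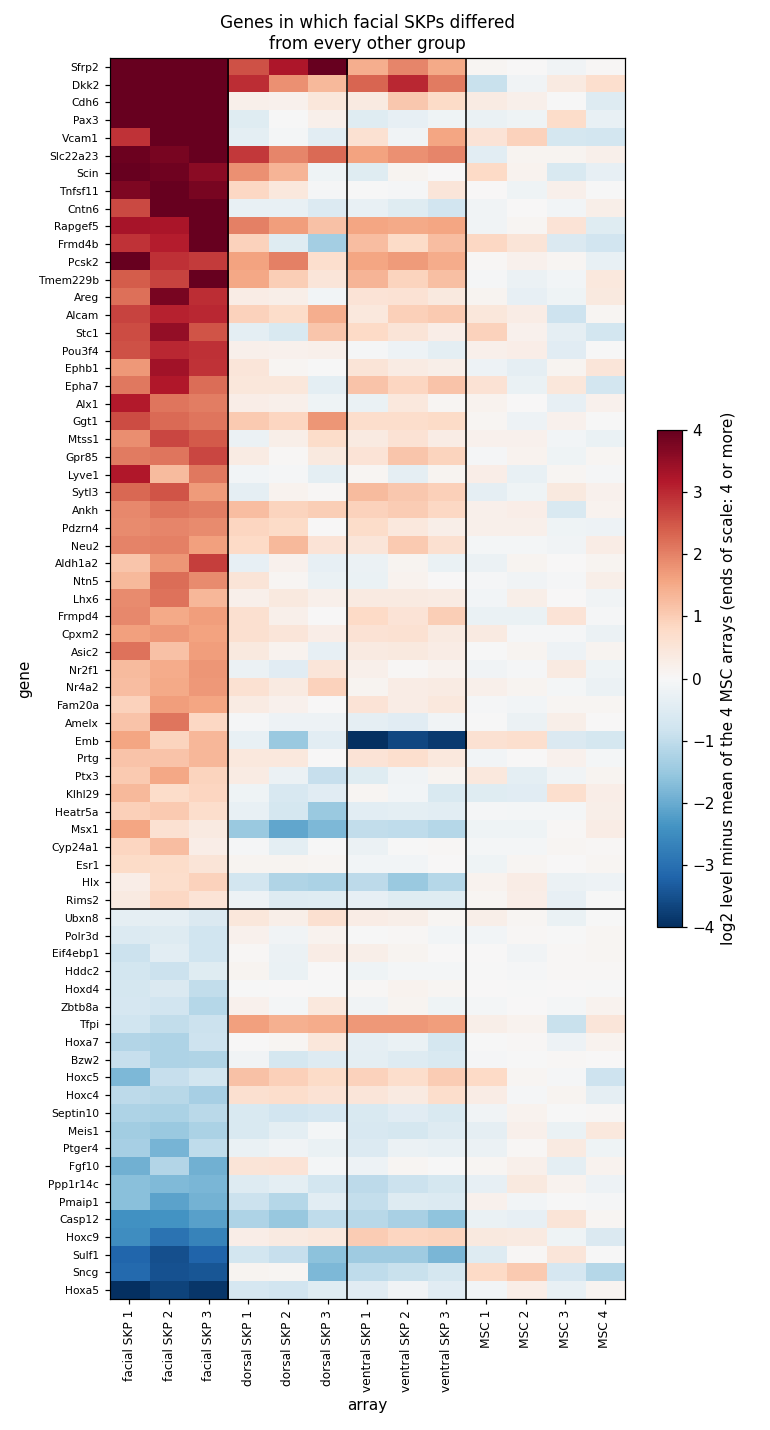
The heat map shows the 48 genes that were higher (above the line) and the 22 that were lower (below it) in facial SKPs than in every other group, as log2 signal minus the mean of the 4 MSC arrays on each of the 13 arrays. The 3 facial columns carry the colour in nearly all rows, while Sfrp2, Dkk2 and Slc22a23 were raised in trunk SKPs as well and Emb, a cell adhesion protein, was lowest on the ventral arrays. Slc22a23 and Emb were chosen after their values were seen.

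Few of the 48 genes had the array order of the leukocyte markers. Of them, 2 (4.17%) were highest on facial array 3 and lowest on array 2, against 14.9% of all genes. The rule for the 48 worked against that order. By limma, 0 of the 29 leukocyte markers were higher in facial than in dorsal SKPs (0.793% of all genes were), and dorsal array 1 was high in them. The low share was thus partly set by the rule and does not test for a leukocyte part. With the leukocyte signal of each array as a covariate, 13 of the 48 and 6 of the 22 kept all 3 calls, and 388 genes higher and 413 lower remained called against MSCs, a fit in which that covariate is itself higher on facial than on MSC arrays. Leaving out 1 array at a time, 26 of the 48 and 6 of the 22 kept all 3 calls in each of the 13 fits. Without facial array 3 these were 35 of the 48 and 12 of the 22. The genes that were lower numbered 12 without facial array 2, 12 without facial array 3 and 14, 11 and 12 without ventral arrays 1, 2 and 3. Under all 26 alternatives, the covariate included, 11 genes kept their place on the higher side: Pax3, Alx1, Lhx6, Pou3f4, Cdh6, Cntn6, Sfrp2, Tnfsf11, Areg, Gpr85 and Mtss1. On the lower side Hoxa5, Hoxc4, Hoxc9 and Sulf1 did so.

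**Figure D2:**
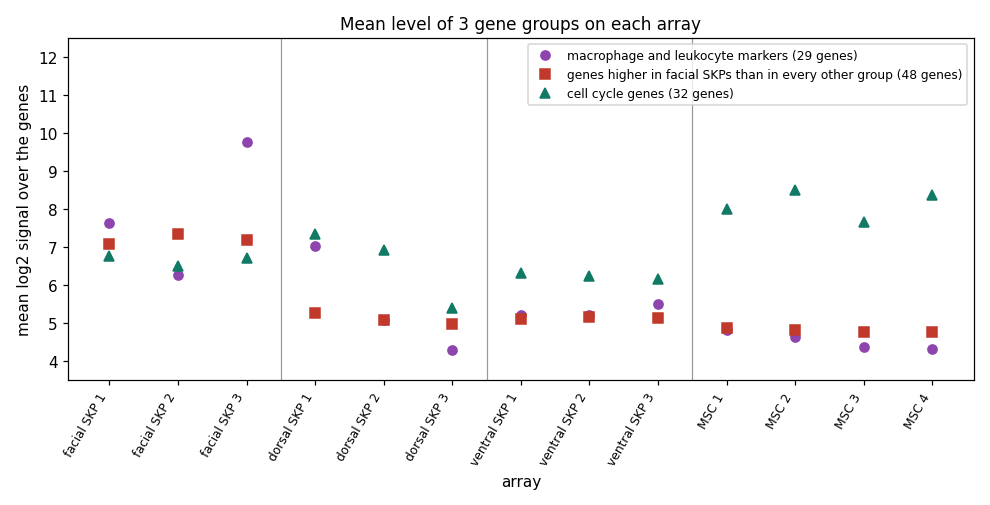
Points give the mean log2 signal on each array of the 29 macrophage and leukocyte markers, the 48 genes higher in facial SKPs than in every other group, and 32 cell cycle genes. The leukocyte markers spread from 6.26 to 9.77 over the facial arrays and reached 7.02 on dorsal array 1, whereas the 48 genes lay at 7.08 to 7.32 on the facial arrays and at 5.26 or below elsewhere. The 48 were chosen on these same arrays for being higher in facial SKPs, so their separation follows from that rule.

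Transcription factors of the head and the neural crest were among the most facial of these genes. Pax3, a paired-box factor that specifies neural crest and muscle precursors, had 8.5, 9.2 and 8.34 on the facial arrays. It had 3.85, 4.32 and 4.53 on dorsal, 3.85, 4.02 and 4.17 on ventral and 4.08, 4.18, 5.07 and 4.04 on MSC arrays. All 3 facial arrays lay above all others, and the highest of these was MSC array 3. Pax3 was higher than in MSCs by 4.34 (SE 0.28, adjusted p = 1.41e-06), than in dorsal SKPs by 4.45 (adjusted p = 1.09e-05) and than in ventral SKPs by 4.66 (adjusted p = 5.52e-06). Trunk SKPs did not pass against MSCs for Pax3 (dorsal -0.11, ventral -0.33).

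Alx1, a homeobox factor of frontonasal mesenchyme, had 6.93, 5.9 and 5.81 on the facial arrays and 3.44 to 4.18 on the 10 others. The groups did not overlap, facial array 1 was highest, and the 3 other group means were near background (3.77 to 3.86), that of MSCs below it. Its differences were 2.44 against MSCs (SE 0.26, adjusted p = 6.24e-05), 2.35 against dorsal (adjusted p = 0.00154) and 2.37 against ventral SKPs (adjusted p = 0.000721). Lhx6, a LIM homeobox factor of the first branchial arch, had 6.8, 7.09 and 6.26 on the facial arrays against 4.78 to 5.32 elsewhere. It did not overlap either, and differed from MSCs by 1.8 (SE 0.17, adjusted p = 2.25e-05) and from dorsal and ventral SKPs by 1.53 and 1.45. Pou3f4, a POU factor best known from ear mesenchyme and neurons, stood at 5.94, 6.4 and 6.31 on the facial arrays and at 2.94 to 3.64 on the 10 others, where all 3 group means were below background. It exceeded MSCs by 2.83 (SE 0.17, adjusted p = 7.97e-07). Because the other groups were below background, the size of that difference is not resolved. Nr2f1, an orphan nuclear receptor of neural crest and brain, was 1.51 above MSCs (7.4 ± 0.25 against 5.89 ± 0.24, adjusted p = 0.000407) and was chosen after its values were seen.

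Msx1, a homeobox factor of jaw and tooth mesenchyme, moved against MSCs in opposite directions in facial and trunk SKPs. It had 8.61, 7.62 and 7.38 on the facial arrays, 6.86, 6.84, 7.06 and 7.3 on the MSC arrays, 5.54, 4.93 and 5.21 on dorsal and 6.04, 6.0 and 5.86 on ventral arrays. Every trunk array lay below every MSC array and every facial array above, with facial array 1 far above the other two. Facial SKPs exceeded MSCs by 0.86 (SE 0.25, adjusted p = 0.0341), dorsal SKPs were below them (-1.79, SE 0.25, adjusted p = 0.00064), and so were ventral SKPs (-1.05, SE 0.25, adjusted p = 0.00991). The facial call was lost without facial array 1 (adjusted p = 0.103) or MSC array 1 (0.0738), 2 (0.079) or 3 (0.0561), with 0.0147 to 0.292 over its alternatives. Facial against dorsal (2.64, adjusted p = 0.00049) and facial against ventral SKPs (1.9, adjusted p = 0.00219) kept their calls in all 13 fits without 1 array. Alx4, a relative of Alx1, went the other way among SKPs. It rose against MSCs in facial (1.92), dorsal (2.75) and ventral SKPs (3.58) and had its lowest SKP mean in facial ones (7.44 ± 0.45, against 8.27 ± 0.36 in dorsal and 9.1 ± 0.09 in ventral SKPs). Facial minus trunk was -1.24 (adjusted p = 0.0117), a call lost without facial array 3 (0.0628; 0.00288 to 0.223 over the alternatives). Of 18 measured craniofacial factors 4 were higher in facial SKPs than in MSCs and 3 lower (9.47% and 9.58% of all genes were), with a median of 0.01. The lower ones were Pitx1 (-1.72), Dlx3 (-1.41) and Dlx5 (-1.05), homeobox factors of jaw, limb and bone. The call of Pitx1 was lost without facial array 1 (adjusted p = 0.0616, and 0.00051 to 0.359 over the alternatives) and that of Dlx3, chosen after its values were seen, without facial array 3 (0.0739, and 0.000125 to 0.376). Dlx5 was lower in trunk SKPs too (dorsal -1.1, ventral -0.98).

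**Figure D3:**
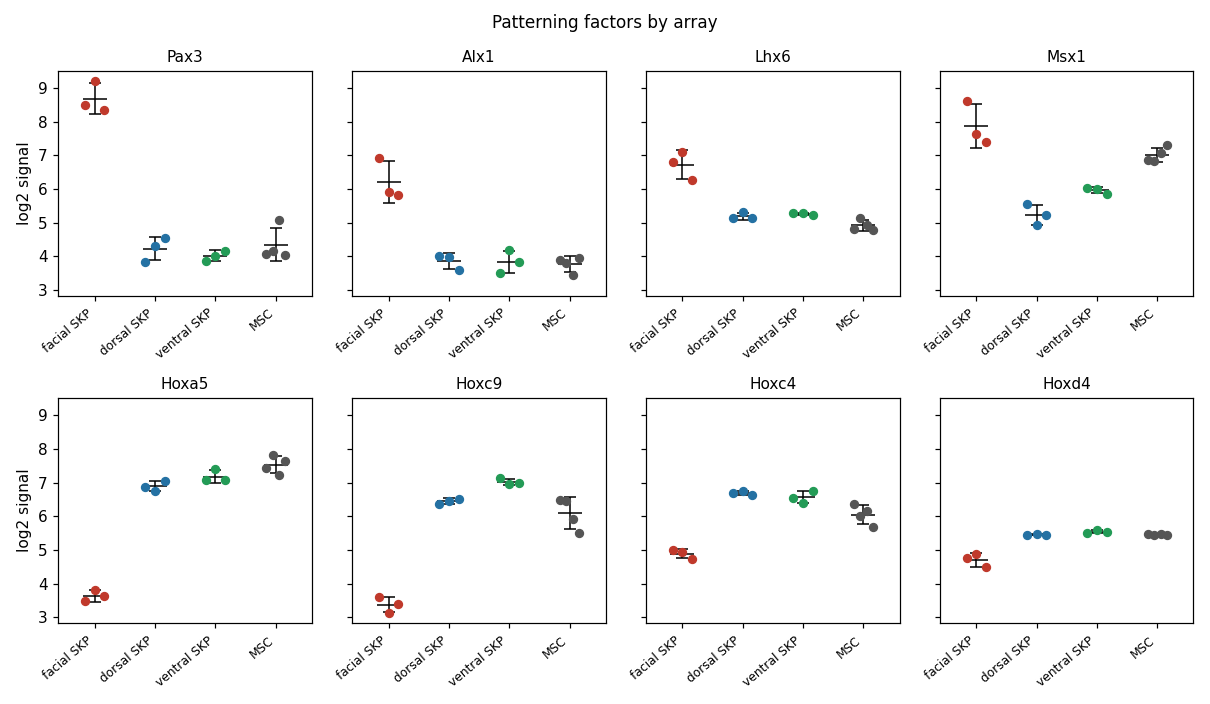
Log2 signal of 8 patterning factors on every array, with points for arrays and a bar for the group mean ± SD (n = 3 for each SKP group, n = 4 for MSCs). Pax3, Alx1 and Lhx6 were high in the facial group alone, Msx1 was higher in facial and lower in trunk SKPs than in MSCs, and Hoxa5, Hoxc9, Hoxc4 and Hoxd4 were lowest on the facial arrays.

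Hox genes showed the reverse. Of 39 Hox genes 22 were measured, and 8 were lower in facial SKPs than in MSCs, where 9.58% of all genes were lower, while 0 were higher by limma (0 also at an unadjusted p under 0.05). Their median was -0.27, and 6 of the 8 stood apart from the trunk groups as well. Of the 22, 13 lay above background in facial SKPs and 19 in MSCs. Hoxb4 (means of 6.19 in facial SKPs and 6.34 in MSCs), Hoxb3 (5.65 and 5.91), Hoxd1 (5.41 and 5.42) and Hoxb7 (5.24 and 5.24) did not pass against MSCs. Hoxb3 (-0.78) and Hoxb4 (-0.59) were lower than in trunk SKPs, calls lost without facial array 1 (adjusted p = 0.051 and 0.115 by limma). These genes were chosen after their values were seen. Hoxa5, a gene of the neck and upper trunk, had 3.47, 3.83 and 3.63 on the facial arrays, below background, and 6.76 to 7.8 on the 10 others. With MSCs at 7.53 ± 0.25, dorsal SKPs at 6.89 ± 0.15 and ventral SKPs at 7.18 ± 0.19, no facial array came near another group. The difference was -3.89 against MSCs (SE 0.15, adjusted p = 7.41e-08), -3.25 against dorsal (adjusted p = 3.19e-06) and -3.54 against ventral SKPs (adjusted p = 1.2e-06). Dorsal SKPs were below MSCs too, by less (-0.64, SE 0.15, adjusted p = 0.0131), and ventral SKPs did not pass (-0.35).

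Hoxc9, a thoracic gene, had 3.6, 3.14 and 3.41 on the facial arrays, also below background, 6.49, 6.44, 5.93 and 5.51 on MSC arrays and 6.36 to 7.12 on trunk arrays. MSC array 4 was the lowest of the others, still far above every facial array. The sizes of the facial differences of Hoxa5 and Hoxc9 are therefore not resolved. Facial SKPs were below MSCs (-2.71, SE 0.21, adjusted p = 6.28e-06), whereas ventral SKPs were above them (0.92, SE 0.21, adjusted p = 0.00707) and dorsal SKPs did not pass (0.35). Hoxc4 had 5.0, 4.95 and 4.73 on facial, 6.35, 6.0, 6.16 and 5.68 on MSC and 6.4 to 6.75 on trunk arrays. It fell in facial SKPs against MSCs (-1.16, SE 0.15, adjusted p = 0.000257) and rose in dorsal (0.64, SE 0.15, adjusted p = 0.0116) and ventral SKPs (0.51, SE 0.15, adjusted p = 0.0253). The trunk rise was lost without MSC array 2 or 4 or ventral array 1 or 3, where the larger of its adjusted p values was 0.0546, 0.0512, 0.068 and 0.115 (0.01 to 0.374 over the alternatives). The fall in facial SKPs was not lost under any of the 26 alternatives.

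The other Hox genes that stood apart were Hoxd4 (-0.75 against MSCs), Hoxa7 (-1.08) and Hoxc5 (-1.15), named after their values were seen. Hoxc5 was below background in facial SKPs. Hoxd4 held in all 13 fits without 1 array. Hoxa7 left the 22 genes without facial array 1 (0.114) or 2 (0.116), MSC array 1 (0.0548) or 2 (0.0553) or ventral array 1 (0.137) or 2 (0.145), and Hoxc5 without facial array 1 (0.127) or 2 (0.0506) or MSC array 1 (0.0587), 2 (0.064) or 3 (0.0505), by the largest of 3 adjusted p values (0.00672 to 0.204 and 0.00639 to 0.209 over the alternatives). Hoxa2, the most anterior Hox gene of the branchial arches and chosen likewise, was below background on all 3 facial arrays (3.14, 3.65 and 3.34). The other groups lay near background too, with means of 4.01 in dorsal SKPs, 3.88 in ventral SKPs and 3.94 in MSCs. Facial SKPs did not pass against dorsal (adjusted p = 0.0831) or ventral SKPs (0.0777). The call against MSCs (-0.56, adjusted p = 0.018) was not kept in every fit without 1 array (0.0792 without facial array 1). Hoxa11, a gene of the limb, differed from these. It was below background in all 3 SKP groups (means 3.58, 3.78 and 3.37 in facial, dorsal and ventral SKPs, so the sizes are not resolved) and had 5.28, 5.83, 8.46 and 7.59 on the MSC arrays, so its fall against MSCs (-3.21, SE 0.6, adjusted p = 0.00323) was shared with dorsal (-3.01) and ventral SKPs (-3.42), and facial against trunk gave 0.01. Meis1, a homeobox cofactor of Hox proteins, had 7.57, 7.45 and 7.68 on facial and 8.23 to 9.36 on the other arrays, without overlap, and fell against MSCs (-1.38, SE 0.19, adjusted p = 0.00037). Its smaller differences from dorsal (-1.02) and ventral SKPs (-0.76) passed at adjusted p = 0.031 and 0.0425 and were lost in 9 of the 13 fits without 1 array, those without any 1 facial or ventral array, dorsal array 2 or 3, or MSC array 2 (0.0514 to 0.142, and 0.0261 to 0.355 for the larger of both over all alternatives). Hoxc6 was not measured here.

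RefSeq promoters on assembly GRCr8, from 250 bases before the start of the gene to 50 after it, were found for 42 of the 48 genes that were higher and 15 of the 22 that were lower. They are printed for Pax3 and Cdh6, which kept their place under all 26 alternatives, for Vcam1, and for Hoxc4, which moved in opposite directions in facial and trunk SKPs. The sequences run 5′ to 3′ on the strand of the gene. Capitals mark the letters TGACAG, the core bound by homeobox factors of the Meis family, or their reverse complement CTGTCA.
Pax3 promoter, chr9:87112482-87112781, minus strand: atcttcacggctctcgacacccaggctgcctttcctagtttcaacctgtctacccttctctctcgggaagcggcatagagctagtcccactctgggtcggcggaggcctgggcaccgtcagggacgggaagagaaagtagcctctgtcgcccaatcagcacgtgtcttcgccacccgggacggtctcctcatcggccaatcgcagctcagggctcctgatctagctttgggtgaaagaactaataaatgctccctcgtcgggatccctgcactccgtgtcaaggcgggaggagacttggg
Cdh6 promoter, chr2:63952238-63952537, minus strand: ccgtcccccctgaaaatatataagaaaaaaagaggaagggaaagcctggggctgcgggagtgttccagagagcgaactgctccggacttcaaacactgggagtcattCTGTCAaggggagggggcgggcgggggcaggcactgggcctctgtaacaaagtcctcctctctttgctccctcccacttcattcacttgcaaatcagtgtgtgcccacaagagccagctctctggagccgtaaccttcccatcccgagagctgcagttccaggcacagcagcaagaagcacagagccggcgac
Vcam1 promoter, chr2:206742734-206743033, minus strand: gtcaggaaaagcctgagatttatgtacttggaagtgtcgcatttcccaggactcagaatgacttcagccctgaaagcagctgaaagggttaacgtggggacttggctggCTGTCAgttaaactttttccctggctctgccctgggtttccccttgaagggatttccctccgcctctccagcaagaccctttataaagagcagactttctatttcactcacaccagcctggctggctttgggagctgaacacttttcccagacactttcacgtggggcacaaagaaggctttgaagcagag
Hoxc4 promoter, chr7:136048809-136049108, plus strand: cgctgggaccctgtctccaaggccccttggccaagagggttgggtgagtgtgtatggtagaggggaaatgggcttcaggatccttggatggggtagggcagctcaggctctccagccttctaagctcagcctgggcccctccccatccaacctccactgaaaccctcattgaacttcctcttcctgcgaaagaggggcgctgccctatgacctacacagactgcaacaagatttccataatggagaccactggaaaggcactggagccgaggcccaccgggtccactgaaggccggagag

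Searched on both strands, TGACAG occurred in 14 of the 42 promoters (33.3%) of genes that were higher and in 1 of 15 (6.67%) of those that were lower, against 18.4% of the 11970 promoters of measured genes. The homeobox core TAATTA occurred in 2 of 42 and 0 of 15 (4.33% of measured genes), and the E-box CATATG in 1 of 42 and 0 of 15 (2.62%). TGACAG was present 1 time each in the windows of Cdh6 and Vcam1 and not in those of Pax3 and Hoxc4. These counts describe letters in a fixed window and do not show that a factor binds there.

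Several of the 48 genes encode adhesion or guidance molecules. Cdh6, a cadherin of migrating neural crest, had 7.68, 8.3 and 7.82 on the facial arrays and 2.97 to 4.57 on the 10 others, with no overlap. MSCs (3.49 ± 0.37) and dorsal SKPs (3.77 ± 0.15) were below background and ventral SKPs (4.22 ± 0.36) just above, so the size is not resolved against MSCs and dorsal SKPs. It exceeded MSCs by 4.44 (SE 0.23, adjusted p = 2.45e-07) and ventral SKPs by 3.71 (adjusted p = 6.29e-06). Ventral SKPs passed against MSCs too, by 0.73 (adjusted p = 0.0347). Vcam1, a cell adhesion molecule for leukocyte integrins, had 7.43, 9.7 and 8.97 on the facial arrays, 4.13, 4.45 and 4.1 on dorsal, 5.13, 4.39 and 6.11 on ventral and 5.07, 5.46, 3.81 and 3.79 on MSC arrays. Facial arrays lay above all others and array 1 was the lowest of them by a wide margin. Vcam1 differed by 4.17 from MSCs (SE 0.57, adjusted p = 0.000409), by 4.48 from dorsal (adjusted p = 0.00437) and by 3.49 from ventral SKPs (adjusted p = 0.00676). With the leukocyte covariate the largest of its 3 adjusted p values was 0.0851 (0.004 to 0.0851 over the alternatives).

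Cntn6, a neural cell adhesion molecule of the contactin family, had 5.55, 7.25 and 7.3 on the facial arrays and 2.15 to 3.14 on the others, all below background. It exceeded MSCs by 3.8 (SE 0.34, adjusted p = 1.78e-05), a size that is not resolved for the same reason. Alcam, the activated leukocyte cell adhesion molecule that also guides axons, had 11.01, 11.39 and 11.33 on facial and 7.46 to 9.76 on the other arrays. It was above MSCs in facial (2.94) and dorsal SKPs (1.03), and facial exceeded dorsal SKPs by 1.91 (adjusted p = 0.012). The latter was 0.0533 without facial array 3 (0.00193 to 0.151 over the alternatives). The ephrin receptors Ephb1 (5.5, 7.12 and 6.64 on facial, 3.4 to 4.26 on other arrays) and Epha7 (6.32, 7.41 and 6.44 and 3.46 to 5.34) guide migrating crest and axons. Ephb1 differed from MSCs, where it was below background, by 2.66 (adjusted p = 0.000155) and Epha7 by 2.52 (adjusted p = 0.000473). Epha7 was closest to ventral SKPs (1.48, adjusted p = 0.0389) and left the 48 genes in 7 of the 13 fits without 1 array, those without any 1 facial or ventral array and without MSC array 2 (0.0511 to 0.124, and 0.0117 to 0.201 over all alternatives). Both were chosen after their values were seen. The list of 35 axon guidance genes held Epha7 and Ephb1, its 2 members among the 48. In facial SKPs 17 of the 35 were higher and 3 lower than in MSCs, with a median of 0.87. Dorsal SKPs had 11 and 3 (0.29) and ventral SKPs 15 and 2 (0.70). Of all genes 9.47% were higher and 9.58% lower in facial, 8.77% and 7.76% in dorsal, and 13% and 11.4% in ventral SKPs. The leading members, the semaphorins Sema3a (5.77), Sema6d (4.73) and Sema7a (4.71) and the receptor Robo1 (3.73), rose in dorsal and ventral SKPs as well. Facial against trunk SKPs gave 0.28, 0.45, 0.75 and 0.24, none of which passed.

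**Figure D4:**
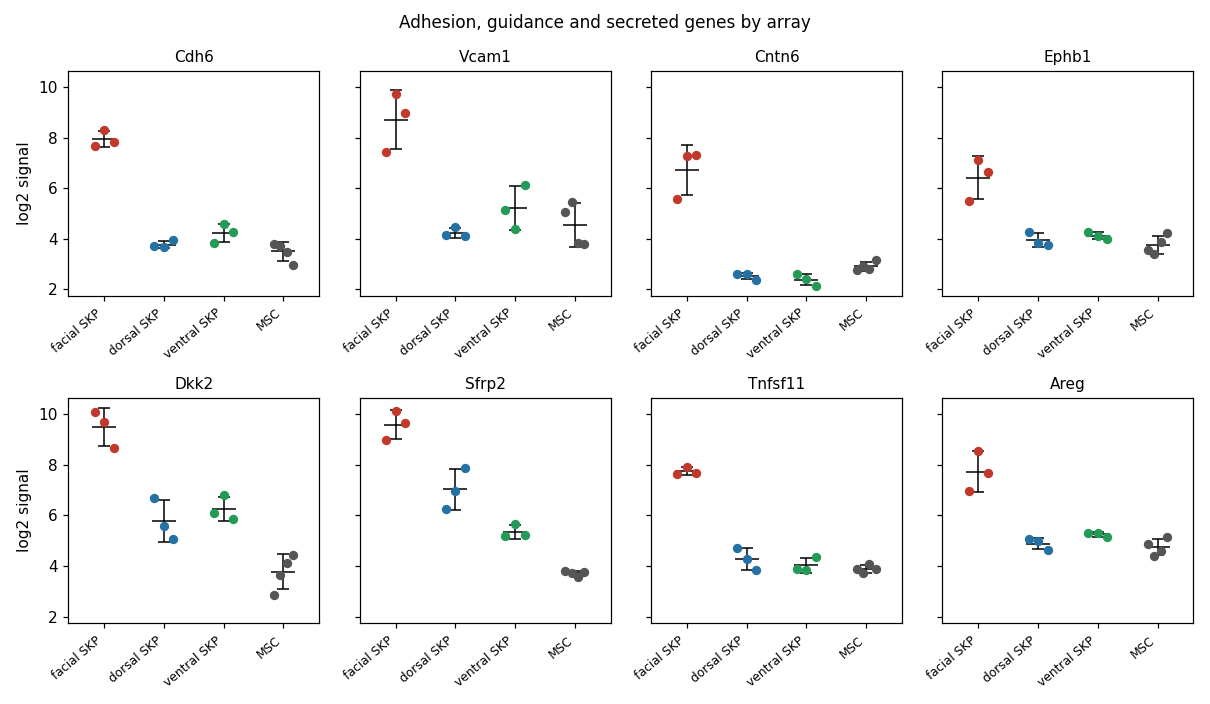
Log2 signal of 4 adhesion or guidance genes (top) and 4 secreted or ligand genes (bottom) on every array, with points for arrays and a bar for the group mean ± SD (n = 3 for each SKP group, n = 4 for MSCs). Facial arrays were above all others in each panel. Dkk2 and Sfrp2 were graded, with trunk SKPs between MSCs and facial SKPs, and for Cntn6, Ephb1, Tnfsf11 and Areg neither trunk group passed against MSCs.

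Among secreted signals the Wnt antagonists were graded rather than facial alone. Sfrp2, a secreted Frizzled-related Wnt modulator, had 8.97, 10.13 and 9.63 on facial, 6.25, 6.94 and 7.88 on dorsal, 5.17, 5.66 and 5.22 on ventral and 3.79, 3.73, 3.58 and 3.76 on MSC arrays. No group overlapped another, in the order facial, dorsal, ventral, MSC. MSCs were below background, so the sizes of the differences from them are not resolved. Facial SKPs exceeded MSCs by 5.87 (SE 0.34, adjusted p = 6.51e-07), dorsal by 2.55 (adjusted p = 0.00482) and ventral SKPs by 4.22 (adjusted p = 5.94e-05). Dkk2, a secreted ligand of the Wnt coreceptor, had 10.1, 9.7 and 8.66 on facial, 5.07 to 6.79 on trunk and 2.86 to 4.45 on MSC arrays, with facial array 3 lowest of the facial ones and MSCs below background. The sizes against MSCs are not resolved here either. Dkk2 exceeded MSCs by 5.72 (adjusted p = 1.02e-05) in facial, 2.02 in dorsal and 2.48 in ventral SKPs, and facial exceeded dorsal SKPs by 3.7 (adjusted p = 0.00437). Of 34 Wnt ligands, targets and antagonists 17 were higher in facial SKPs than in MSCs, with a median of 0.76. Dorsal SKPs had 15 higher and 2 lower (0.66) and ventral SKPs 17 higher and 1 lower (0.65). The shares of all genes that were higher were 9.47% in facial, 8.77% in dorsal and 13% in ventral SKPs. The ligand Wnt5a (3.04, SE 0.34, adjusted p = 9.77e-05) and the feedback inhibitor Axin2 (2.61, SE 0.4, adjusted p = 0.000854) rose in all 3 SKP groups.

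Tnfsf11, Areg and Stc1, also among the 48, encode ligands or other secreted proteins. Tnfsf11, known as RANKL and the ligand that drives osteoclast formation, had 7.63, 7.92 and 7.69 on facial and 3.71 to 4.7 on the 10 other arrays. The 3 facial arrays lay close together and far above the rest, and the difference from MSCs was 3.86 (SE 0.2, adjusted p = 2.45e-07), from dorsal 3.47 and from ventral SKPs 3.73. Amphiregulin (Areg), an EGF receptor ligand, had 6.96, 8.56 and 7.69 on facial and 4.4 to 5.31 on other arrays, without overlap. It was above MSCs by 2.99 (SE 0.3, adjusted p = 4.24e-05), and neither trunk group passed (dorsal 0.14, ventral 0.51). Stanniocalcin 1 (Stc1), a secreted glycoprotein, had 7.68, 8.59 and 7.61 on facial and 4.36 to 6.19 on other arrays, where dorsal array 3 was highest. It differed from MSCs by 2.87 (adjusted p = 0.00104), from dorsal by 2.84 (adjusted p = 0.0145) and from ventral SKPs by 2.35 (adjusted p = 0.0156). It left the 48 without facial array 2 (0.0545), ventral array 2 (0.0536) or ventral array 3 (0.0642), where the values are the largest of its 3 adjusted p values (0.00326 to 0.0754 over the alternatives). Scinderin (Scin), a calcium-dependent actin-severing protein, had 8.97, 8.63 and 8.34 on facial, 6.55, 6.1 and 4.56 on dorsal and 4.23 to 4.83 and 4.11 to 5.52 on ventral and MSC arrays. It exceeded MSCs by 3.92 (adjusted p = 8.75e-05) and dorsal SKPs by 2.91 (adjusted p = 0.0111).

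Retinoid genes were called in all 3 SKP groups, and 1 enzyme among them differed between facial SKPs and every other group. Of 21 retinoid genes 8 were higher and 1 lower in facial SKPs than in MSCs, with a median of 0.42. Dorsal SKPs had 5 higher, and ventral SKPs 7 higher and 3 lower. The shares of all genes that were higher were 9.47% in facial, 8.77% in dorsal and 13% in ventral SKPs. Cyp26b1, which breaks down retinoic acid, rose by 5.71 in facial, 4.47 in dorsal and 4.22 in ventral SKPs against MSCs. Aldh1a2, an enzyme that makes retinoic acid and that was chosen after its values were seen, had 5.05, 5.73 and 6.71 on facial and 3.62 to 4.11 on the other arrays. Dorsal SKPs were below background. Facial array 3 was highest, as it was for the leukocyte markers, and facial arrays did not overlap the others. Its differences were 1.88 from MSCs (SE 0.3, adjusted p = 0.00116), 2.04 from dorsal and 2.01 from ventral SKPs. They passed in each fit without 1 array and not all with the leukocyte covariate (largest adjusted p = 0.224, 0.00119 to 0.224 over the alternatives).

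Genes lowest in facial SKPs included matrix, growth factor and cell death genes beside the Hox genes. Sulf1, a sulfatase that trims heparan sulfate, had 6.54, 6.21 and 6.52 on facial, 7.88 to 9.0 on trunk and 9.19, 9.76, 10.22 and 9.7 on MSC arrays. The 3 kinds of culture did not overlap, and Sulf1 was -3.3 from MSCs in facial (SE 0.25, adjusted p = 5.98e-06), -1.09 in dorsal and -1.56 in ventral SKPs. Fgf10, a mesenchymal growth factor that acts on epithelium, had 7.9, 8.65 and 7.91 on facial and 9.43 to 10.38 on other arrays. It fell against MSCs by 1.68 on the log2 scale (SE 0.22, adjusted p = 0.000294), and neither trunk group passed (0.33 and -0.05). Gamma-synuclein (Sncg), a small cytosolic protein of neurons and fat, had 5.83, 5.46 and 5.53 on facial, 9.06, 9.03 and 7.15 on dorsal, 7.93, 8.06 and 8.25 on ventral and 9.74, 9.99, 8.26 and 7.8 on MSC arrays. Dorsal array 3 was lowest of the 10 others and MSC arrays 1 and 2 highest. Sncg fell against MSCs (-3.34, SE 0.55, adjusted p = 0.00144), but its call against dorsal (-2.8, adjusted p = 0.0447) or ventral SKPs (-2.47, adjusted p = 0.0292) was lost without dorsal array 1 (0.107) or 2 (0.0915), facial array 1 (0.0847), 2 (0.106) or 3 (0.134), or ventral array 1 (0.0859), 2 (0.0856) or 3 (0.0961), with 0.0091 to 0.217 over the alternatives. The BH3-only death gene Pmaip1 (-1.9, SE 0.17, adjusted p = 2.15e-05) and the prostaglandin receptor Ptger4 (-1.4, SE 0.19, adjusted p = 0.000409) fell against MSCs too. Pmaip1 lost a call against dorsal SKPs without facial array 2 (0.0509) or 3 (0.0533; 0.00896 to 0.177 over the alternatives), and Ptger4 lost one against ventral SKPs without ventral array 2 (0.0533) or 3 (0.0546; 0.0116 to 0.0546 over its alternatives).

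A smaller set went the other way, with both trunk groups apart from MSCs and from facial SKPs. This held for 9 genes that were higher in trunk SKPs (0.062%) and 11 that were lower (0.0758%). By the median, facial SKPs lay nearer to MSCs in both sets. This follows in large part from the rule, which asked trunk SKPs to differ the same way from MSCs and from facial SKPs. The median differences of facial SKPs from MSCs were 0.25 and -0.03, against 1.53 and -1.28 in dorsal and 2.00 and -1.16 in ventral SKPs. Hoxc4, among the 9, was farther from MSCs in facial (-1.16) than in dorsal (0.64) or ventral SKPs (0.51). Hoxc4, Tfpi, Msx1 and Hlx were also among the genes that stood apart in facial SKPs. Adgrl4, an adhesion G protein-coupled receptor of vessels, had 7.8, 7.38 and 8.28 on dorsal and 5.87, 6.1 and 6.08 on ventral arrays against 4.12, 3.4 and 3.49 on facial and 2.78 to 3.62 on MSC arrays, both below background. Facial SKPs did not differ from MSCs by the test (0.45, SE 0.25, adjusted p = 0.253), while dorsal (4.6) and ventral SKPs (2.8) rose. Mab21l2, a gene of eye and body wall development, had 7.2, 8.12 and 7.65 on facial and 7.09, 7.36, 7.76 and 7.63 on MSC arrays, which overlapped, against 4.26 to 4.68 on trunk arrays. It fell in dorsal (-3.01, SE 0.21, adjusted p = 3.63e-06) and ventral SKPs (-2.94, SE 0.21, adjusted p = 2.89e-06), and facial against MSCs gave 0.2 (SE 0.21). The transcriptional coregulator Cited2 was lower than in MSCs in all SKPs, by less in facial (-1.01) than in dorsal (-2.14) or ventral ones (-2.34), and the facial differences from dorsal (1.12, adjusted p = 0.0047) and ventral SKPs (1.33, adjusted p = 0.000719) passed. Without 1 array the higher genes numbered 5 to 22 (22 without dorsal array 2, 5 without facial array 3) and the lower ones 6 to 14, with 6 without facial array 2 or 3 and 7 without MSC array 4 or ventral array 1 or 3. In all 13 such fits 2 of the 9 and 5 of the 11 were called, Adgrl4 and Mab21l2 among them.

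Opposite calls against MSCs, facial one way and both trunk groups the other, were made for 4 genes: Msx1 and Hlx higher in facial, Tfpi and Hoxc4 lower (0.0138% of genes for each direction). Tissue factor pathway inhibitor (Tfpi), a clotting inhibitor, had 5.7, 5.53 and 5.63 on facial, 6.75, 6.65, 5.63 and 6.99 on MSC and 7.93 to 8.25 on trunk arrays. Facial arrays lay below MSC arrays 1, 2 and 4, MSC array 3 lay among them, and trunk arrays above all. Trunk SKPs exceeded MSCs by 1.53 (dorsal) and 1.71 (ventral), and facial SKPs fell below dorsal (-2.41, adjusted p = 0.00091) and ventral SKPs (-2.6, adjusted p = 0.000291). The facial call against MSCs (-0.89, SE 0.25, adjusted p = 0.0267) was lost without facial array 1 (0.0595), 2 (0.0836) or 3 (0.0725) or MSC array 1 (0.0632), 2 (0.0627) or 4 (0.0675), with 5.44e-05 to 0.44 over the alternatives. Hlx, a homeobox factor of visceral mesenchyme, had 7.04, 7.49 and 7.7 on facial, 6.91, 7.08, 6.53 and 6.55 on MSC and 5.27 to 6.04 on trunk arrays, so that facial and MSC arrays overlapped. Its call against MSCs (0.64, SE 0.2, adjusted p = 0.0478) was lost in 9 of the 13 fits without 1 array (without dorsal array 2, facial array 2 or 3, MSC array 1, 3 or 4, or any ventral array; 0.0516 to 0.187, and 0.025 to 0.865 over the alternatives). The number of opposite genes was 2 without any 1 facial array or without ventral array 1 or 3, and 1 without MSC array 1, 2 or 4.

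Many of the largest differences between facial SKPs and MSCs were shared with trunk SKPs. Collagenase 3 (Mmp13) had 12.09, 13.37 and 12.46 on facial and 5.92, 3.37, 3.49 and 3.86 on MSC arrays, a difference of 8.48 (SE 0.53, adjusted p = 1.26e-06), against 8.35 and 8.49 in dorsal and ventral SKPs. Facial minus trunk was 0.06 and did not pass. The matrix proteoglycan decorin (Dcn) behaved alike, with 6.92 in facial, 7.58 in dorsal and 8.15 in ventral SKPs. Dio2, which activates thyroid hormone, was graded: it had 11.56, 11.65 and 11.05 on facial, 9.43, 11.11 and 9.55 on dorsal, 7.33, 8.57 and 7.69 on ventral and 2.66, 3.28, 3.77 and 3.78 on MSC arrays. Facial SKPs exceeded ventral ones by 3.55 (adjusted p = 0.0013) and did not pass against dorsal ones (1.39, adjusted p = 0.201). Bmp7, a bone morphogenetic protein, had 10.33, 10.36 and 9.73 on facial and 7.28 to 9.12 on trunk arrays, without overlap, against 3.67 to 4.42 on MSC arrays. It exceeded MSCs by 6.16 (SE 0.33, adjusted p = 3.31e-07), and facial exceeded dorsal SKPs by 1.9 (adjusted p = 0.0237) but not ventral ones by the test (1.2, adjusted p = 0.0649). Facial against trunk (1.55, adjusted p = 0.024) was lost without facial array 1 (0.087) or 2 (0.0701) or ventral array 1 (0.0594) or 3 (0.0582), with 0.00279 to 0.282 over the alternatives. Serpina3n (6.31), a serine protease inhibitor, and Sparcl1 (5.85), a matrix-associated glycoprotein, were also among the 10 largest rises. Their facial minus trunk differences of 1.82 and 2.03 did not pass, which does not show equal levels.

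On the lower side the contractile genes led in facial as in trunk SKPs. The actin-binding protein transgelin (Tagln) had 5.48, 4.57 and 4.96 on facial and 11.7, 11.76, 12.73 and 12.85 on MSC arrays (-7.26, SE 0.36, adjusted p = 2.45e-07), against -7.23 in dorsal and -7.75 in ventral SKPs. Of 27 actin and serum response genes 23 were lower in facial SKPs, with a median of -2.33, as were 24 in dorsal (-2.31) and 23 in ventral SKPs (-2.64). Of all genes 9.58% were lower in facial, 7.76% in dorsal and 11.4% in ventral SKPs. Of 17 pericyte and smooth muscle markers 11 were lower, with a median of -2.82, and their members Tagln, calponin 1 (Cnn1, -5.01) and smooth muscle actin (Acta2, -4.33) are in the actin list too. MSC arrays 3 and 4 were higher than 1 and 2 in these genes, with 10.98, 11.39, 13.06 and 13.23 for Acta2. The collagen receptor subunit Itga11 (-5.73), the LIM protein Fhl1 (-5.7), the kinase anchor Akap12 (-5.65), the matrix proteins Smoc1 (-5.35) and Mfap5 (-5.23) and the monooxygenase Cyp1b1 (-5.08) fell in facial SKPs, and none differed between facial and trunk SKPs by the test. Cell cycle genes were lower in 26 of 32 cases, with a median of -1.62, against -1.74 in dorsal and -2.15 in ventral SKPs. Without facial array 3, 17 were lower, and without both facial array 3 and dorsal array 1, 23 were. Cyclin B1 (Ccnb1) had 7.05, 6.2 and 6.83 on facial and 8.94, 9.41, 8.73 and 9.56 on MSC arrays and fell (-2.47, SE 0.47, adjusted p = 0.00333). With the mean of the cell cycle genes as a covariate, 839 genes were lower in facial SKPs than in MSCs.

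**Figure D5:**
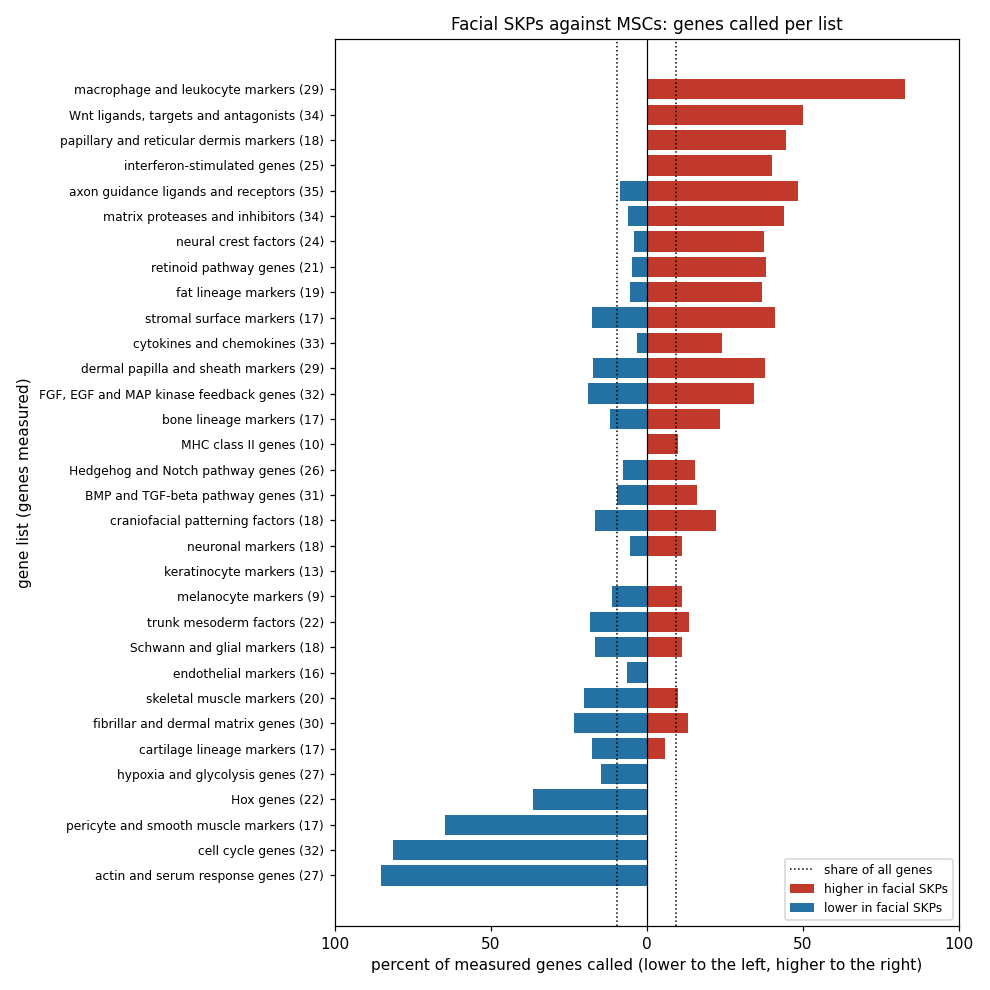
Bars give, for each of 32 gene lists, the percent of measured genes (number in brackets) called higher (right) or lower (left) in facial SKPs than in MSCs, and dotted lines mark the shares over all genes, 9.47% higher and 9.58% lower. Leukocyte markers reach furthest to the right, and actin, cell cycle, pericyte and Hox genes furthest to the left.

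Lists of position, lineage and dermis gave mixed calls, with the share of all genes called (9.47% higher, 9.58% lower) as the measure. Of 24 neural crest factors 9 were higher and 1 lower than in MSCs, with a median of 0.49 (dorsal 0.08, ventral 0.62), led by Crabp1, Cdh6, Pax3 and the crest factor Tfap2c (4.15, and -0.8 from trunk, which did not pass). Of 29 dermal papilla and sheath markers 11 were higher and 5 lower (median 0.54), with the growth factor binding proteins Igfbp5 (5.06) and Igfbp3 (4.49) up and the proteoglycan aggrecan (Acan, -4.22) down. Of 18 papillary and reticular dermis markers 8 were higher (median 1.85, and 0.12 in dorsal and 0.96 in ventral SKPs), among them the guidance factor Ntn1 (3.29) and the collagen Col23a1 (2.65). That median was 1.32 without facial array 3, and with the leukocyte covariate it was 0.25, with 2 higher and 1 lower. Of 22 trunk mesoderm factors 3 were higher and 4 lower (median -0.06), with the T-box factor Tbx2 up (2.77) and the homeobox factor Meox2 down (-2.64). Zic1, a zinc finger factor of dorsal mesoderm, and Tbx5, a T-box factor of the ventral body wall and forelimb, were chosen after their values were seen. Zic1 was high on the dorsal arrays alone (7.53, 8.25 and 8.53, against 3.97, 4.14 and 3.6 on the facial and 3.93 to 4.1 on the MSC arrays), and Tbx5 on the ventral arrays alone (6.57, 6.36 and 6.05, against 4.41, 4.01 and 4.03 and 3.78 to 4.4). Facial minus MSC was -0.08 for Zic1 and -0.02 for Tbx5, and neither passed.

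The next lists stand beside 9.47% of all genes higher and 9.58% lower in facial SKPs. These shares were 8.77% and 7.76% in dorsal and 13% and 11.4% in ventral SKPs. Of 17 bone lineage markers 4 were higher and 2 lower (median -0.06), with the ligand Bmp2 (3.92) and the matrix protein osteopontin (Spp1, 2.01) up. Of 17 cartilage markers 1 was higher, the link protein Hapln1 (3.81), and 3 lower (median -0.13). Fat lineage markers passed upward in 7 of 19 cases and downward in 1 (median 0.44). Dorsal SKPs had 6 higher and 1 lower than MSCs, and ventral SKPs 7 and 2. Facial against trunk SKPs called 0 of the 19 by limma (4 higher and 2 lower at an unadjusted p under 0.05). The leading fat markers in facial SKPs were the lipid receptor Cd36 (7.38, 5.31 and 8.39 on facial arrays), the lipase Lpl (7.62, 7.9 and 9.01) and Fabp4 (5.64, 4.7 and 7.3), all highest on facial array 3, where the leukocyte markers were highest. Without that array 4 were higher, and the calls of Cd36 (adjusted p = 0.0502), Lpl (0.0757) and Fabp4 (0.109) were lost, as was that of Fabp4 without facial array 1 (0.0544) or MSC array 3 (0.0531). Over the alternatives the values ran from 0.00038 to 0.835, from 6.04e-05 to 0.727 and from 0.00415 to 0.707. Of 17 stromal surface markers 7 were higher and 3 lower (median 0.74), with Vcam1 and Alcam leading, and 5 higher and 1 lower without facial array 3. Of 30 fibrillar and dermal matrix genes 4 were higher and 7 lower (median -0.11), with decorin up and the crosslinking enzyme Lox (-3.76) down, and 4 lower without facial array 3. Matrix proteases and inhibitors were higher in 15 and lower in 2 of 34 cases (median 0.63), headed by Mmp13, Mmp10 (7.55), Mmp3 (5.67) and the inhibitor Timp3 (5.26). Dorsal SKPs had 13 of these higher and 3 lower than MSCs (median 0.45), and ventral SKPs 17 and 3 (median 0.74).

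Pathway lists were read beside the 9.47% of all genes called higher and the 9.58% called lower. Among pathways, 11 of 32 FGF, EGF and MAP kinase feedback genes were higher and 6 lower (median 0.32). The phosphatases Dusp4 (4.81) and Dusp6 (2.87) were up and the ligand Hbegf down (-3.35). Areg and Hbegf, which bind the same receptor, thus had opposite signs, and only Areg differed between facial and both trunk groups by the tests (0.55 for Hbegf against trunk, adjusted p = 0.367). Of 31 BMP and TGF-beta genes 5 were higher and 3 lower (median -0.02). Bmp3, a BMP antagonist, had 9.44, 8.28 and 8.24 on facial, 7.94, 6.52 and 7.16 on dorsal, 4.29, 5.08 and 4.38 on ventral and 5.34, 5.08, 6.74 and 6.36 on MSC arrays. It was above MSCs in facial SKPs (2.77, SE 0.46, adjusted p = 0.00158) and above ventral SKPs (4.07, adjusted p = 0.00089), not above dorsal ones by the test (1.44). Of 26 Hedgehog and Notch genes 4 were higher and 2 lower (median 0.04), with the Notch ligand Dll1 up (2.76) and the ligand Jag1 down (-3.04), and 2 higher and 1 lower without facial array 3. Hypoxia and glycolysis genes were lower in 4 of 27 cases (median -0.17), led by carbonic anhydrase 9 (Car9, -2.46), and in 2 without facial array 3.

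Immune genes beyond the leukocyte markers moved partly with them. Of 33 cytokines and chemokines 8 were higher and 1 lower than in MSCs (median 0.32), against 3 and 1 in both dorsal and ventral SKPs. Of all genes 9.47% were higher and 9.58% lower in facial, 8.77% and 7.76% in dorsal, and 13% and 11.4% in ventral SKPs. The chemokine Ccl6 had 7.3, 6.69 and 9.1 and Ccl3 7.65, 5.86 and 8.93 on the facial arrays, both highest on array 3 and lowest on array 2 as the leukocyte markers were, and both rose (5.14 and 3.73). Cxcl14, a chemokine of skin, did not have that order (8.08, 8.56 and 8.01), differed from MSCs by 3.16 (SE 0.18, adjusted p = 4.9e-07), rose in ventral (2.92) and did not pass in dorsal SKPs (0.33). Of 10 MHC class II genes RT1-DMb alone was called (7.19, 5.31 and 9.89 on facial arrays, difference 3.25), and not without facial array 3 (adjusted p = 0.0641, and 0.00318 to 0.557 over the alternatives). Interferon-stimulated genes were higher in 10 of 25 cases (median 0.61), as with 5 in dorsal and 8 in ventral SKPs, and in 10 without facial array 3. The leaders were Ifitm1 (3.84), which limits virus entry, and the protease Usp18 (3.5). The part of the leukocyte signal in these differences was not tested further than by the covariate.

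Markers of other cell types were called in both directions, beside 9.47% of all genes called higher and 9.58% called lower. Schwann and glial markers were higher in 2 and lower in 3 of 18 cases, neuronal markers higher in 2 and lower in 1 of 18, and melanocyte markers higher in 1 and lower in 1 of 9. The growth cone protein Gap43 had 6.62, 7.84 and 6.46 on facial, 4.72 to 5.03 on dorsal, 6.21 to 6.8 on ventral and 4.49 to 4.92 on MSC arrays. It rose in facial (2.25, SE 0.28, adjusted p = 0.00021) and ventral SKPs (1.75) and not in dorsal ones by the test (0.11). Map2, a neuronal microtubule protein, did alike (3.56 in facial, 3.26 in ventral, 0.93 in dorsal SKPs, the last not passing). The pigment cell factor Mitf rose in all SKP groups (2.11 in facial). Skeletal muscle markers were higher in 2 and lower in 4 of 20 cases, with desmin (Des) down (-2.69). Without facial array 3 the lower muscle markers were 2, the higher glial ones 1, and no neuronal or melanocyte marker was lower. Endothelial markers were lower in 1 of 16 cases, Egfl7 (-0.91), and not without facial array 3 (adjusted p = 0.0865, and 0.00589 to 0.598 over the alternatives). Of 13 keratinocyte markers 0 were called by limma, and 0 had an unadjusted p under 0.05.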

How the data were processed

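Total RNA of 13 cultures was hybridised to Rat Gene 1.0 ST arrays of Affymetrix, 1 array per sample. The authors deposited log2 values normalized by RMA, with Affymetrix Expression Console and limma named in the submitters' processing notes without versions. Scanner files were not used here, so background correction and RMA could not be varied. An array has no read depth, and the number of arrays limits precision. Of 29215 probe sets, 15310 had 1 gene symbol, 323 several and 13582 none. Those with 1 symbol gave 14506 genes, and each of the 527 genes with several probe sets was represented by its brightest one, by mean over the 13 arrays.

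Groups and replicate numbers came from the sample titles. In R 4.3.3, limma 3.58.1 was fitted to all genes and all 13 arrays as 4 group means, with no covariate. Tests were two-sided, p-values were adjusted by Benjamini-Hochberg over 14506 genes, and a gene was called where the result lay under 0.05. On simulated data for the facial minus MSC comparison the fit found 82% of 100 genes changed by 1 and 96% of 100 changed by 2 on the log2 scale, with 7 false calls. For the genes apart from all 3 other groups it found 70% and 93%, with 1 false call. The simulated arrays had independent normal noise with each gene's own spread, a common mean over groups and changes in facial SKPs alone. They held no other group differences and no signal shared between arrays, such as that of the leukocyte markers. These false calls are therefore not the error rate of the lists from the real arrays.

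Named genes were the 10 largest differences each way against MSCs, the 12 each way with the largest of the smallest facial differences, the 8 each way for trunk SKPs, the 3 each way among opposite genes, up to 4 called members per list and a few fixed markers, with conditions on overlap and background. Only part of them is printed, and genes outside the rule are marked as chosen after their values were seen. The comparison, the members and the gene lists were chosen with earlier results of these data known. Alternatives were array weights, centring, quantile normalization, other probe set rules, a 2-fold minimum, a leukocyte or cell cycle covariate, the replicate number as a block, fewer groups or MSC arrays, and each array left out. One fit without facial array 3 and dorsal array 1 was added after the data were seen. Promoters came from RefSeq tables on GRCr8.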

Additional observations from a re-analysis of the deposited data

Results flagged for a closer look

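In 36 named genes facial SKPs differed from dorsal and from ventral SKPs in the same direction, each at an adjusted p under 0.05 by limma, although many of them were named for differences on the same arrays. The values given are facial minus the mean of both trunk groups. Higher in facial SKPs were Pax3 (4.56), Cntn6 (4.25), Vcam1 (3.98), Cdh6 (3.94), Tnfsf11 (3.6), Scin (3.48), Dkk2 (3.47), Sfrp2 (3.39), Mab21l2 (3.17), Pou3f4 (2.85), Areg (2.67), Stc1 (2.6), Alx1 (2.36), Msx1 (2.27), Alcam (2.02), Hlx (1.79) and Lhx6 (1.49). Siae (1.63), an esterase of sialic acids, Fam107b (1.31), Cited2 (1.23) and the sulfotransferase Chst10 (1.14) were lower in trunk SKPs than in MSCs. Lower in facial SKPs were Hoxa5 (-3.39), Hoxc9 (-3.35), Sncg (-2.64), Tfpi (-2.51), Sulf1 (-1.97), Fgf10 (-1.81), Hoxc4 (-1.73), Pmaip1 (-1.16), Ptger4 (-1.11) and Meis1 (-0.89). Adgrl4 (-3.25), the adhesion receptor Adgrg2 (-2.42), the membrane glycoprotein Mdga2 (-2.14), the aspartyl protease Bace2 (-2.1) and Cadps (-1.33), a factor of vesicle release, were higher in trunk SKPs than in MSCs.

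Of the 36 contrasts, those of Adgrg2 (0.0592), Chst10 (0.0604) and Fam107b (0.0722) lost their calls without facial array 3 by adjusted p, over ranges of 0.000631 to 0.34, 0.00793 to 0.16 and 0.0072 to 0.269 across the alternatives. Those of Sncg and Meis1 were lost without each facial array in turn (0.0616 to 0.093 for Sncg and 0.0645 to 0.0711 for Meis1, and 0.00254 to 0.111 and 0.00672 to 0.309 over the alternatives), without ventral array 1 or 3, and for Sncg without ventral array 2.

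In 3 named genes 1 MSC array stood apart from the 3 others. The gap over the range of the group was 0.879 for the myelin gene Pmp22 (10.95, 10.67, 10.95 and 10.92), 0.873 for Pax3 (4.08, 4.18, 5.07 and 4.04) and 0.872 for the adhesion molecule Ncam1 (9.26, 8.86, 9.32 and 9.28), above Dixon's critical value for 4 arrays. The array was MSC array 2, low, for Pmp22 and Ncam1 and MSC array 3, high, for Pax3. Chance gives about 1 in 20 groups such a gap, and 148 genes were examined.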

How the results depend on the processing

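Against MSCs facial SKPs had 1007 to 1625 genes higher and 891 to 1663 lower with 1 array left out, 772 and 565 at a 2-fold minimum, and 388 and 413 with the leukocyte covariate. Lower genes were 839 with the cell cycle covariate. Centred on array medians the split was 1173 higher and 1703 lower, and with quantile normalization 1320 and 1689. Centring moved the median of all genes from -0.03 to -0.10, and the medians of the craniofacial (to -0.07) and Hedgehog and Notch lists (to -0.03) turned negative, as they did with quantile normalization (-0.10 and -0.05).

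Genes apart in facial SKPs were 33 to 65 higher and 11 to 27 lower with 1 array left out, and 16 and 7 with the leukocyte covariate. Lower ones were 9 at 2-fold and 10 without facial array 3 and dorsal array 1. Trunk genes were 5 to 22 higher and 6 to 14 lower with 1 array left out, 15 and 17 with array weights, 15 and 18 with MSC arrays 3 and 4 alone, and 5 and 2 with the leukocyte covariate. The higher were 14 when centred. The lower were 7 at 2-fold, 7 with the cell cycle covariate, 19 with MSC arrays 1 and 2 alone and 6 without facial array 3 and dorsal array 1. Opposite genes were 1 to 5 with 1 array left out, 0 at 2-fold and with the cell cycle covariate (4 at an adjusted p under 0.05 otherwise), 2 with the leukocyte covariate, 1 with MSC arrays 1 and 2 alone and 2 without facial array 3 and dorsal array 1.

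Deviations of same-numbered facial and MSC arrays from their group means correlated at -0.0671, -0.00746 and -0.0506. For facial and dorsal arrays the values were -0.09, 0.199 and -0.122, and for facial and ventral arrays -0.0595, -0.0143 and 0.0867. With 3 or 4 arrays per group these values do not settle whether replicate numbers pair samples. With the number as a replicate block, apart genes were 30 higher and 14 lower, trunk genes 4 and 5, and opposite genes 1.

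With the leukocyte covariate, built from such genes, differences from MSCs turned negative for Aif1 (-0.36), C1qa (-0.59), C1qc (-0.71), Cd14 (-0.19), Cd4 (-0.90), Coro1a (-1.39), Csf1r (-0.74), Fabp4 (-0.43), Fcgr1a (-0.13), Fcgr3a (-0.32), Il18 (-0.18), Itgam (-0.12), Lfng (-0.0315), Ptprc (-0.0427), RT1-DMb (-0.57), Trem2 (-0.46) and Tyrobp (-0.30). With the cell cycle covariate Kif20a (0.056), Tpx2 (0.0426), Thy1 (1.65) and Adgrg2 (-1.50) changed sign. The cause was not tested.

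MSCs came without a named tissue, each group had 3 or 4 arrays, and levels near background compress differences, which limits the smallest change that can be seen.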

Other observations

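Some of the 48 genes that were higher in facial SKPs than in every other group are known from tissues other than dermis, and these were chosen after their values were seen. Amelx, which encodes the enamel matrix protein amelogenin, had 5.02, 5.99 and 4.69 on the facial and 3.4 to 4.11 on the 10 other arrays. It did not overlap and differed from MSCs by 1.37 (SE 0.25, adjusted p = 0.00237). Fam20a, a secretory pathway protein needed for enamel formation, had 5.27, 6.02 and 5.93 on facial and 4.25 to 4.91 on other arrays, a difference from MSCs of 1.39 (adjusted p = 0.000149). Lyve1, a hyaluronan receptor of lymphatic vessels and some macrophages, had 7.88, 5.94 and 6.78 on facial and 4.28 to 4.93 on other arrays. Facial array 1 was its highest and array 2, the lowest for the leukocyte markers, its lowest facial array.

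Mtss1, an actin-binding membrane protein, had 8.27, 9.09 and 8.86 on facial and 6.14 to 7.14 on the other arrays (2.33 from MSCs, adjusted p = 4.59e-05). Gpr85, an orphan receptor of the brain, had 5.95, 6.01 and 6.54 and 3.7 to 4.98 (2.3 from MSCs, adjusted p = 4.92e-06). The netrin Ntn5, below background in the other groups, had 4.98, 5.92 and 5.58 and 3.42 to 4.21 (1.81 from MSCs, adjusted p = 0.000202). Each of these 6 genes kept its place among the 48 in all 13 fits without 1 array. With the leukocyte covariate Lyve1, Fam20a and Ntn5 lost it (largest of 3 adjusted p values 0.201, 0.142 and 0.137, and 0.000951 to 0.201, 0.000974 to 0.142 and 0.00157 to 0.137 over the alternatives). Lyve1 also lost it without facial array 3 and dorsal array 1 together (0.0542). Amelx lost it with the replicate number as a block (0.0674, and 0.00833 to 0.0674 over the alternatives) and with the cell cycle covariate, and Fam20a where a 2-fold difference was required as well. Gpr85 and Mtss1 kept it under all 26 alternatives.

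The MSC arrays differed among themselves in several genes, with arrays 3 and 4 apart from 1 and 2. Smooth muscle actin gamma (Actg2) had 6.22, 7.0, 11.88 and 10.54 and Acan had 8.16, 7.95, 11.98 and 11.76 on MSC arrays 1 to 4, while the facial arrays had 4.42, 4.26 and 4.04 and 6.18, 5.71 and 5.33.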
